A study of Saccharomyces cerevisiae with 18 samples.

Results

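The 81 genes described here encode the proteins of the large (60S) subunit of the cytosolic ribosome of Saccharomyces cerevisiae. They were chosen by gene name: the letters RPL followed by a number and an optional A or B, together with RPP0, RPP1A, RPP1B, RPP2A and RPP2B, which took 81 of the 6692 probes in the count tables. They make up 35 pairs of an A and a B gene and 11 single genes. Most pairs are paralogs left by an ancient genome duplication and encode nearly the same protein, while the A and B genes of RPP1 and of RPP2 encode more distant relatives. All 81 probes are the R64 gene with 100 nt added downstream, and all 81 passed the filter on low counts, as did 5658 genes in all. The study compared strain ZCZ01, in which the galactose-inducible GAL1-10 promoter drives the protein phosphatase gene PPZ1, with wild type BY4741. Both strains were grown on raffinose and then received galactose to 2%, so wild type cells went through the same change of sugar. RNA was taken at 0.5, 2 and 4 h after galactose in 3 experiments, which gave 18 QuantSeq 3′ libraries, 3 for each strain and time. ZCZ01 is the only strain with this promoter construct among these libraries.

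Each large subunit holds 1 copy of most of these proteins around the 25S, 5.8S and 5S rRNAs, and the stalk is the exception, with several copies of its acidic proteins. In yeast these genes are among the most strongly transcribed by RNA polymerase II. Rap1 binds their promoters and recruits Fhl1 and its co-activator Ifh1, and Sfp1 adds to this, while the TORC1 and protein kinase A pathways raise or lower the whole group with growth rate and carbon source. Many of the genes carry an intron, which is rare in this genome.

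QuantSeq reads come from the end of the transcript, so the part of a gene that tells an A copy from its B copy is its 3′ end. The last 90 coding bases of 3 pairs whose copies changed differently are shown because they carry some of the bases by which reads can be told apart, with bases that differ between A and B in capitals (RefSeq, R64). RPL7A (chrVII:364335-364424, minus strand) and RPL7B (chrXVI:174613-174702, plus strand) differ there at 5 bases, RPL15A (chrXII:201976-202065, minus strand) and RPL15B (chrXIII:509734-509823, minus strand) at 11, and RPL40A (chrIX:69439-69528, plus strand) and RPL40B (chrXI:617996-618085, minus strand) at 5.
RPL7A: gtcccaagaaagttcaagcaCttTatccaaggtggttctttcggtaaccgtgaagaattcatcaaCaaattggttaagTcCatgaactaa
RPL7B: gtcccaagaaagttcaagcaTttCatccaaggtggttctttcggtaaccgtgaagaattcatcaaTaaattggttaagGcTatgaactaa
RPL15A: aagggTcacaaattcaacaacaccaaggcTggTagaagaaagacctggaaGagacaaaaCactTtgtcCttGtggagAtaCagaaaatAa
RPL15B: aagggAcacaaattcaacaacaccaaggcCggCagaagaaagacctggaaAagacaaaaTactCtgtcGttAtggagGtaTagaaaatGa
RPL40A: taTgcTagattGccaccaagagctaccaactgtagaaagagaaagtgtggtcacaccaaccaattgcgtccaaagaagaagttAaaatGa
RPL40B: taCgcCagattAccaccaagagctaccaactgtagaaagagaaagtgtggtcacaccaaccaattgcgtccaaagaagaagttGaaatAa

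Over the last 300 bases of the 81 probes, which reach into the sequence downstream of the stop codon, 55 genes held no stretch of 75 bases that occurs a second time in the genome. The other 26 held some, with the highest share, 55.8% of stretches, in RPL1A and RPL1B, and 24.8% in RPL7A and RPL7B. RPL18B is also among the 26, at 17.7%. The sources used here do not say how reads that fit 2 places were counted, so values of these 26 genes can mix with those of their partner. RPL15A, RPL15B, RPL40A and RPL40B held none. The sequence downstream of the stop codon, not printed here, also tells the copies of RPL7, RPL15 and RPL40 apart.

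Libraries held 955972 to 1920193 counts, and a member gene had 75 to 19643 counts in a library. PPZ1 had 38 to 834 counts in the 9 ZCZ01 libraries and 7 to 17 in the 9 wild type libraries. BY4741 lacks MET17, LEU2 and URA3 and carries an internal deletion in HIS3. MET17 had 0 counts and LEU2 at most 1 in every library, while URA3 had 0 to 20 in ZCZ01 and 2 to 27 in wild type. HIS3 had 62 to 286 counts in ZCZ01 and 29 to 139 in wild type, but reads from its 3′ end do not check a deletion inside the gene. For 12 of the 18 libraries the time in the sample title is not that of the library name, and times here follow the library name. With the times of the titles no member passed between the strains at 0.5, 2 or 4 h, so every strain result given here rests on the library names. Libraries of experiments 2 and 3 were closely alike: over the member genes, chi-square per degree of freedom was 1.58 to 3.38 between them and 91.3 to 311.9 between either and experiment 1. The tests count 3 experiments, so each leading count is also given with experiments 2 and 3 summed into 1. The sources used here do not say whether the experiments were separate cultures, and p-values measure only the spread between these libraries.

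The 81 genes took a large share of all counts, and from 0.5 to 2 h this share went down in ZCZ01 and up in wild type in each experiment. At 0.5 h it was 16.4, 13.5 and 13.4% in ZCZ01 (experiments 1, 2 and 3), against 13.5, 11.0 and 11.1% in wild type. At 2 h it was 13.7, 11.6 and 11.7% in ZCZ01, against 18.6, 16.1 and 16.2% in wild type. Every experiment was thus higher in ZCZ01 than in its wild type partner at 0.5 h and lower at 2 h, and at 2 h the strains did not overlap. At 4 h it was 13.7, 12.9 and 12.9% in ZCZ01, against 13.0, 13.0 and 13.0% in wild type, which differed by less than 1 percentage point in each experiment. The group means were, from the earliest to the latest time, 14.4 ± 1.75%, 12.4 ± 1.19% and 13.2 ± 0.489% in ZCZ01, against 11.9 ± 1.39%, 17.0 ± 1.40% and 13.0 ± 0.0362% in wild type (SD, n = 3 each). Counts are relative to the other transcripts of a library, so in these bulk samples fewer cells of a kind and less RNA per cell cannot be told apart.

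**Figure D1:**
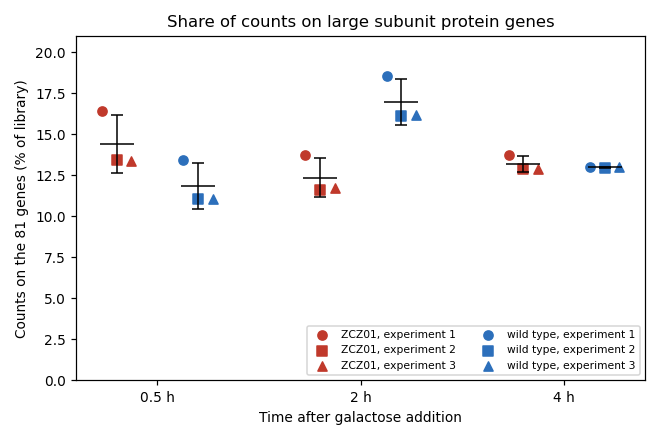
Share of each library's counts on the 81 large subunit protein genes (y axis, % of all counts) by time after galactose (x axis), ZCZ01 in red left of wild type in blue, with 1 marker shape for each experiment and the mean ± SD of 3 libraries in black. At 2 h the ZCZ01 libraries sit between 11.6 and 13.7%, below the wild type libraries at 16.1 to 18.6%.

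At 0.5 h, 17 of the 81 genes rose in ZCZ01 and 0 fell (edgeR's quasi-likelihood test, adjusted p under 0.05 over all genes). Where the strains are compared at a single time, rose and fell mean higher and lower in ZCZ01 than in wild type. Change over time within a strain is given further below. Over all genes tested, 4.56% rose and 2.30% fell. The median log2 fold change of the members was 0.39, against 0.01 over all genes, and 76, 76 and 79 of the 81 were above wild type in experiments 1, 2 and 3. In 33 members every ZCZ01 library was above every wild type library, which held for 11.5% of all genes. No member passed with a lower level at an unadjusted p under 0.05 either, and DESeq2 called 22 higher and 0 lower. With experiments 2 and 3 summed 0 members passed in either direction (15 higher and 0 lower at an unadjusted p under 0.05, median 0.35). That fit called 5 genes higher and 0 lower over all genes. Without experiment 2 or without experiment 3 0 members passed as well, and without experiment 1 74 members rose and 2 fell. Only the closely alike experiments 2 and 3 remained in that last fit. Shares over all genes are not given for the fits without an experiment.

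RPL25, the protein at the tunnel exit on which the signal recognition particle docks, had the largest of the called changes at 0.5 h. Its level, as CPM (a gene's counts scaled to a common library size by TMM), was 3455, 2093 and 1967 in ZCZ01, against 2456, 1071 and 1096 in wild type (log2 fold change 0.77 ± 0.21, edgeR adjusted p = 0.0443). The ZCZ01 values of experiments 2 and 3 lay below the wild type value of experiment 1, so the groups overlapped although ZCZ01 was higher within each experiment. Here and below, ± after an edgeR log2 fold change is a standard error from the fit, not an SD between experiments. RPL9A, a protein of the factor binding side of the subunit, had 1234, 780.4 and 829.9 CPM in ZCZ01, against 802, 453 and 483 CPM in wild type (log2 fold change 0.73 ± 0.15, edgeR adjusted p = 0.0111). RPL27A had 873, 775 and 752 CPM in ZCZ01, against 752, 439.7 and 387 CPM in wild type (log2 fold change 0.66 ± 0.17, edgeR adjusted p = 0.0342). RPL43A and RPL8B rose by less, with log2 fold changes of 0.57 ± 0.13 and 0.55 ± 0.11 (adjusted p = 0.0149 and 0.00762), and the 3 ZCZ01 values of RPL8B, 1576, 1269 and 1240.2 CPM, were all above the 3 wild type values, 979.8, 918 and 870.3 CPM.

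At 2 h the direction was turned: 55 of the 81 genes were lower in ZCZ01 than in wild type and 2 were higher. Over all genes tested, 23.2% fell and 19.1% rose. The members' median log2 fold change was -0.56, against -0.05 over all genes, and 78, 68 and 67 members were below wild type in experiments 1, 2 and 3. In 44 members every ZCZ01 library was below every wild type library, as in 23.6% of all genes. Summing experiments 2 and 3 left 32 members lower and 0 higher (at an unadjusted p under 0.05 there were 45 and 2), all 32 among the 55. That fit called 725 genes lower and 636 higher over all genes. Without experiment 2 or 3, 33 and 31 members fell. The test that takes no account of the pairing of libraries called 31 members lower and 1 higher. Shares over all genes are not given for the fits without an experiment or without the pairing.

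The lowest member at 2 h was RPL18B, with 61.1, 148 and 130.0 CPM in ZCZ01, against 199, 446 and 446 CPM in wild type (log2 fold change -1.69 ± 0.17, edgeR adjusted p = 5.98e-06). Each ZCZ01 library was below every wild type library. RPL1B, which with RPL1A forms the L1 stalk that guides tRNA out of the E site, had 1997, 1328 and 1230.0 CPM in ZCZ01, against 3906, 3491 and 3365 CPM in wild type (log2 fold change -1.27 ± 0.15, edgeR adjusted p = 1.49e-05). RPL31B, a protein beside the tunnel exit, had 525, 445 and 413 CPM in ZCZ01, against 1169.9, 1024 and 1009 CPM in wild type (log2 fold change -1.22 ± 0.15, edgeR adjusted p = 3.44e-05). Neither gene overlapped between strains. RPL1B is one of the genes whose end is partly shared with its partner, so its values can mix with those of RPL1A. RPL7A had 618, 824 and 846 CPM in ZCZ01, against 1539, 1828 and 1888 CPM in wild type (log2 fold change -1.21 ± 0.11, edgeR adjusted p = 3.00e-06). RPL2A, whose protein lies by the peptidyl transferase centre, had 2062, 1491 and 1472 CPM in ZCZ01, against 4034, 3603 and 3599 CPM in wild type (log2 fold change -1.18 ± 0.15, edgeR adjusted p = 3.32e-05). These were again apart in all libraries, and all 5 genes passed with experiments 2 and 3 summed.

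The 2 members that rose at 2 h were the B copies of RPL7 and RPL15. RPL7B had 394, 482 and 519 CPM in ZCZ01, against 251, 372 and 361 CPM in wild type (log2 fold change 0.51 ± 0.16, edgeR adjusted p = 0.02). RPL15B had 148, 113 and 135 CPM in ZCZ01, against 70.4, 97.0 and 93.4 CPM in wild type (log2 fold change 0.61 ± 0.19, edgeR adjusted p = 0.0208). In both, every ZCZ01 library was above every wild type library, though neither passed with experiments 2 and 3 summed. RPL39, a very small protein that lines the tunnel, had the highest fitted value of all members at 2 h without passing: it had 533, 1499 and 1403 CPM in ZCZ01, against 854, 352 and 334 CPM in wild type (log2 fold change 1.21 ± 0.58, edgeR adjusted p = 0.111), lower in ZCZ01 in experiment 1 and higher in experiments 2 and 3.

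**Figure D2:**
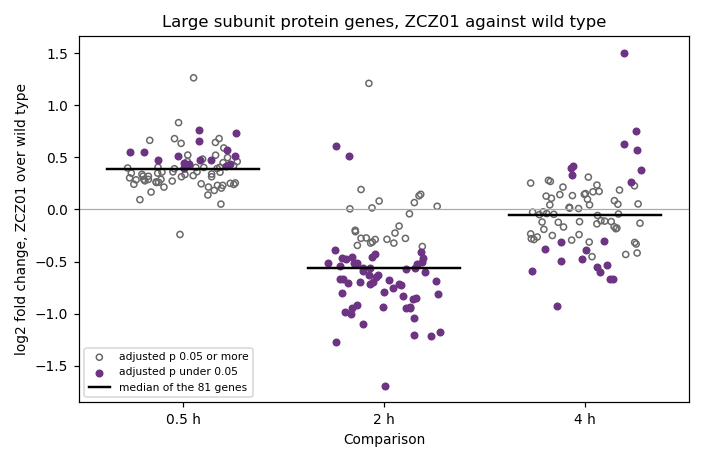
Log2 fold change of each of the 81 genes (y axis, ZCZ01 over wild type, edgeR) at 0.5, 2 and 4 h (x axis), filled where the adjusted p was under 0.05 and open otherwise, spread sideways only to keep points apart, with the members' median as a black line. The medians are 0.39, -0.56 and -0.05, and the points of 4 h lie on both sides of 0.

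At 4 h the members were divided, with 9 higher and 13 lower in ZCZ01. Over all genes tested, 19.9% were higher and 21.4% lower, so both shares were below those of all genes. The median was -0.05, against 0.00 over all genes, and it was 0.00 when libraries were scaled by total counts only. After experiments 2 and 3 were summed only 4 of the 22 passed: RPL7B higher, and RPL7A, RPL18B and RPL40B lower. That fit called 682 genes higher and 720 lower over all genes. Without experiment 2 or 3, 1 member rose and 2 fell in each case, and without experiment 1 29 members rose and 33 fell. Shares over all genes are not given for these fits, and only the closely alike experiments 2 and 3 remained in the last.

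RPL7B stood highest above wild type at 4 h, with 294, 523 and 475 CPM in ZCZ01, against 79.1, 228 and 175 CPM in wild type (log2 fold change 1.50 ± 0.17, edgeR adjusted p = 1.02e-05). Its partner RPL7A had 573, 887 and 999 CPM in ZCZ01, against 984, 1346 and 1313 CPM in wild type (log2 fold change -0.59 ± 0.11, edgeR adjusted p = 0.00104), so the copies passed in opposite directions, RPL7B without overlap of the strains and RPL7A with it. RPL15B rose with 135, 184 and 163 CPM in ZCZ01, against 80.3, 108 and 97.5 CPM in wild type (log2 fold change 0.75 ± 0.19, edgeR adjusted p = 0.00637). RPL22B, which had one of the lowest levels of the set, had 93.2, 112 and 105 CPM in ZCZ01, against 57.9, 70.7 and 72.2 CPM in wild type (log2 fold change 0.63 ± 0.18, edgeR adjusted p = 0.0115), with no overlap of the strains. All 3 of these higher members are B copies, and of them only RPL7B also passed with experiments 2 and 3 summed. RPL33B and RPL19A were higher than wild type by 0.57 ± 0.18 and 0.41 ± 0.12 on the log2 scale (adjusted p = 0.0245 and 0.0126). RPL40B, a ubiquitin fusion, was the lowest member with 383, 339 and 365 CPM in ZCZ01, against 589, 733 and 760.0 CPM in wild type (log2 fold change -0.93 ± 0.14, edgeR adjusted p = 1.64e-04). Its strains did not overlap. RPL37B was called at -0.67 ± 0.23 (adjusted p = 0.0313), with 388, 913 and 877 CPM in ZCZ01, against 1045, 1133 and 1073 CPM in wild type, where experiment 1 carried most of the difference. RPL18B and RPL9A fell as well, with log2 fold changes of -0.66 ± 0.18 and -0.60 ± 0.15 (adjusted p = 0.00805 and 0.0071). Without experiment 1 the log2 fold changes at 4 h were -0.37 for RPL18B, -0.28 for RPL37B and 0.86 for RPL33B. From 2 to 4 h RPL7B, RPL22B and RPL19A fell in wild type, by log2 fold changes of -1.09, -0.90 and -0.72 (edgeR adjusted p = 0.00392, 0.00663 and 0.00213). None of the 3 passed over that interval in ZCZ01.

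The change of the strain effect between times was tested in the same model. Between 0.5 and 2 h the ZCZ01 to wild type ratio went down in 67 members and up in 1, RPL15B, while over all genes it went down in 18.2% and up in 12.5%. The members' median of this difference was -0.92 on the log2 scale, against -0.08 over all genes, and with experiments 2 and 3 summed 35 went down and 0 up (1 up at an unadjusted p under 0.05). Of all genes in that summed fit, 472 went down and 376 up. Between 2 and 4 h the ratio went up in 30 members and down in 0, while over all genes it went up in 6.86% and down in 6.88%. The median difference was 0.48, against 0.04 over all genes. No member went down at an unadjusted p under 0.05 or by DESeq2, which called 27 up. With experiments 2 and 3 summed 0 members passed (25 up and 0 down at an unadjusted p under 0.05). Of all genes in that summed fit, 10 went up and 43 down. The 2 h libraries enter both differences with opposite sign, so the drops and the gains are not independent.

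The strains' own time courses gave the parts of this difference. From 0.5 to 2 h, 34 members fell and 1 rose in ZCZ01 (over all genes, 19.0% fell and 16.8% rose), with a median of -0.35. In wild type 43 rose and 0 fell over the same interval (over all genes, 11.0% rose and 9.40% fell), with a median of 0.57, and at an unadjusted p under 0.05 or by DESeq2 none fell either. The one that rose in ZCZ01 was again RPL15B (0.78 ± 0.20 on the log2 scale). RPL31B fell by 0.73 in ZCZ01 and rose by 0.94 in wild type on the log2 scale, with an adjusted p of 0.0013 and 2.14e-04. In the fit of summed experiments, 4 members fell and 1 rose in ZCZ01, and 5 rose and 0 fell in wild type (27 and 0 at an unadjusted p under 0.05). Of all genes in that fit, 441 fell and 404 rose in ZCZ01, and 228 rose and 147 fell in wild type.

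From 2 to 4 h 1 member, RPL41B, rose in ZCZ01 and 0 fell (over all genes, 2.63% rose and 3.46% fell), at a median of -0.03. In wild type 42 fell and 0 rose (over all genes, 5.76% fell and 5.18% rose), at a median of -0.52. At an unadjusted p under 0.05, 4 rose and 6 fell in ZCZ01 and 0 rose in wild type, and by DESeq2 0 fell in ZCZ01 and 0 rose in wild type. In the fit of summed experiments none of the 81 passed in this interval in either strain (at an unadjusted p under 0.05, 1 rose and 0 fell in ZCZ01, and 0 rose and 38 fell in wild type). Of all genes in that fit, 5 rose and 29 fell in ZCZ01, and 15 rose and 3 fell in wild type. With 3 experiments counted, 23 members both rose from 0.5 to 2 h and fell from 2 to 4 h in wild type (3.85% of all genes), and 0 did so in ZCZ01 (1.15% of all genes). With experiments 2 and 3 summed, 0 members had this course in wild type. The 2 h libraries of a strain are shared by both of its intervals, so the calls of a rise and of a fall are not independent.

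**Figure D3:**
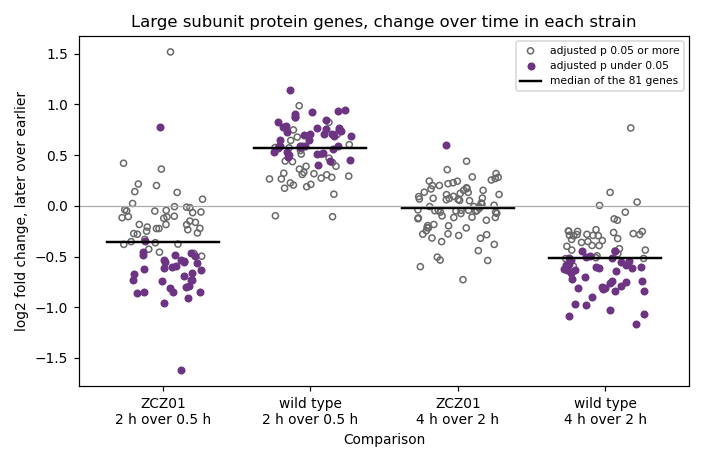
Log2 fold change between times (y axis, later over earlier, edgeR) of each of the 81 genes, for ZCZ01 left of wild type in each interval (x axis), filled where the adjusted p was under 0.05 and open otherwise, with the median as a black line. From 0.5 to 2 h the medians are -0.35 in ZCZ01 and 0.57 in wild type, and from 2 to 4 h they are -0.03 and -0.52.

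The members are given next by role, beside shares over all genes of 4.56% higher at 0.5 h, 23.2% lower at 2 h, and 19.9% higher and 21.4% lower at 4 h. The stalk (RPP0, RPP1A, RPP1B, RPP2A, RPP2B, RPL12A and RPL12B), which recruits the translation factors that hydrolyse GTP, had 1 of 7 genes higher at 0.5 h, 5 lower at 2 h and 1 higher at 4 h. RPP0, the scaffold of the stalk, had 4829, 2394 and 2457 CPM in ZCZ01, against 7817, 4449 and 4875 CPM in wild type at 2 h (log2 fold change -0.86 ± 0.11, edgeR adjusted p = 2.59e-05). The acidic proteins RPP1A, RPP1B, RPP2A and RPP2B all fell at 2 h, with log2 fold changes of -0.51, -0.70, -0.69 and -0.54. RPP1A no longer passed with experiments 2 and 3 summed (edgeR adjusted p = 0.161), and the other acidic proteins did. The stalk base genes RPL12A and RPL12B did not pass at 2 h, at 0.13 ± 0.14 and -0.16 ± 0.11 (adjusted p = 0.465 and 0.246). RPP2B was the stalk gene that rose at 0.5 h (0.51 ± 0.10, adjusted p = 0.00791), and RPP1A the one that rose at 4 h (0.33 ± 0.12, adjusted p = 0.0386).

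The proteins that enter the subunit with the 5S rRNA, RPL5, RPL11A and RPL11B, all fell at 2 h and none passed at 0.5 or 4 h. RPL11A had 1989, 1407 and 1399.6 CPM in ZCZ01, against 3269.7, 2579.6 and 2508 CPM in wild type at 2 h (log2 fold change -0.81 ± 0.10, edgeR adjusted p = 2.93e-05), with the strains apart. RPL11B (-0.43 ± 0.13) and RPL5 (-0.51 ± 0.12) were lower than wild type by less, with an adjusted p of 0.0153 and 0.0031. With experiments 2 and 3 summed RPL11A passed, while RPL11B and RPL5 did not (edgeR adjusted p = 0.227 and 0.112). From 0.5 to 2 h RPL11B itself changed by -0.04 in ZCZ01 (edgeR adjusted p = 0.899) and by 0.70 in wild type (edgeR adjusted p = 0.0215). Around the peptidyl transferase centre, RPL3 had 3058, 1890.5 and 2072 CPM in ZCZ01, against 4847, 3272 and 3241 CPM in wild type at 2 h (log2 fold change -0.70 ± 0.13, edgeR adjusted p = 5.89e-04). RPL10, a protein loaded late, in the cytoplasm, had 1819, 2018 and 1931 CPM in ZCZ01, against 3133, 1513 and 1415 CPM in wild type (log2 fold change 0.03 ± 0.20, edgeR adjusted p = 0.917), lower in ZCZ01 in experiment 1 and higher in experiments 2 and 3. RPL28, the protein altered in cycloheximide resistant mutants, fell at 2 h (-0.52 ± 0.12, adjusted p = 0.00278), but not with experiments 2 and 3 summed (edgeR adjusted p = 0.122).

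At the exit of the tunnel, 4 of 14 genes were higher at 0.5 h, 9 lower at 2 h, and 2 higher and 2 lower at 4 h. RPL25 did not pass at 2 h (-0.29 ± 0.21) or 4 h (0.28 ± 0.21), with an adjusted p of 0.295 and 0.32. The ubiquitin fusion genes RPL40A and RPL40B both fell at 2 h, with log2 fold changes of -0.73 ± 0.12 and -0.70 ± 0.14 (adjusted p = 3.09e-04 and 0.00138). RPL40A passed with experiments 2 and 3 summed and RPL40B did not (edgeR adjusted p = 0.0312 and 0.0557). RPL30, whose protein binds its own transcript and blocks its splicing, had 3299, 2329.8 and 2432 CPM in ZCZ01, against 6125, 3992 and 4083 CPM in wild type at 2 h (log2 fold change -0.81 ± 0.12, edgeR adjusted p = 1.60e-04). At 4 h it was on the other side, with 4239, 2926 and 3162 CPM in ZCZ01, against 3692, 2130.3 and 2173 CPM in wild type (log2 fold change 0.40 ± 0.12, edgeR adjusted p = 0.0182). The strains were apart at 2 h and overlapped at 4 h, where ZCZ01 was higher within each experiment.

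The 3 genes with the highest mean level over all libraries were RPL41B (6062 CPM), which encodes the shortest of these proteins, RPP1A (6029 CPM) and RPL28 (5313 CPM). The 3 lowest were RPL18B (239 CPM), RPL22B (107.3 CPM) and RPL15B (107.4 CPM), all B copies. These levels count transcript ends and were not divided by length. Relative to wild type, RPL41B was higher in ZCZ01 at 0.5 h (0.55 ± 0.15, adjusted p = 0.035) and lower at 2 h (-0.57 ± 0.15, adjusted p = 0.00619). Without experiment 1 these values were 0.33 and -0.34, and with experiments 2 and 3 summed the one at 0.5 h did not pass (edgeR adjusted p = 0.204). From 0.5 to 2 h its own change was -0.38 in ZCZ01, which did not pass (edgeR adjusted p = 0.0524), and 0.76 in wild type (edgeR adjusted p = 0.00115). RPL15B, at the low end of the set, was higher in ZCZ01 than in wild type at 2 and 4 h.

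Members with and without an intron had close medians at each time, while at 4 h a larger share of those with an intron was called. At 2 h, 36 of the 53 genes with an intron fell and 1 rose, at a median of -0.56, and 19 of the 28 without one fell and 1 rose, at a median of -0.53. At 0.5 h 12 of 53 and 5 of 28 rose, at medians of 0.40 and 0.34. At 4 h 7 rose and 11 fell of the 53, and 2 rose and 2 fell of the 28, at medians of -0.04 and -0.05. Over all genes tested, 4.56% were higher at 0.5 h, 23.2% lower at 2 h, and 19.9% higher and 21.4% lower at 4 h. These are descriptions, and the difference between the groups was not tested.

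The A and B copies as groups were also close: at 2 h 26 of 35 A copies and 23 of 35 B copies fell (23.2% of all genes), at medians of -0.65 and -0.56. In 17 pairs both copies fell at 2 h and in 15 only one did. Among the 15 were RPL7 and RPL15, the 2 pairs in which the A copy fell and the B copy rose. To compare the copies, the log2 ratio of A to B counts (with 0.5 added) was taken in each library, and the wild type value was subtracted from the ZCZ01 value within each experiment. The result, here called the A minus B difference, is negative where ZCZ01 shifted toward the B copy. With 3 experiments an exact sign permutation test cannot give a two-sided p below 0.25, so signs and spread are given without a test. The difference had the same sign in all 3 experiments in 14 of 35 pairs at the first time, 22 at the second and 26 at the last. Experiments 2 and 3 were closely alike, so a shared sign in all 3 says little more than agreement of experiment 1 with them. No share expected for pairs without a difference was worked out, so these counts are descriptions only. Its median size over the pairs was 0.13, 0.36 and 0.32 in the same order.

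RPL7 shifted most. At 2 h RPL7A made up 61.1, 63.1 and 62.0% of the pair's counts in ZCZ01, against 86.0, 83.1 and 83.9% in wild type, an A minus B difference of -1.96, -1.52 and -1.68 in experiments 1, 2 and 3 (mean -1.72 ± 0.22, SD, n = 3). At 4 h it made up 66.1, 62.9 and 67.8% in ZCZ01, against 92.6, 85.5 and 88.3% in wild type (difference -2.67, -1.80 and -1.84, mean -2.10 ± 0.49). At 0.5 h the strains overlapped, with 82.5, 78.5 and 78.0% in ZCZ01, against 78.1, 80.0 and 79.2% in wild type. The summed level of both copies at 4 h was 867, 1411 and 1474 CPM in ZCZ01, against 1064, 1574 and 1488 CPM in wild type, and these sums overlapped. RPL7B had 134 to 928 counts in a library, and YPL197C, the probe it overlaps on the opposite strand, had 0 to 7.

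RPL15 shifted in the same direction. At 4 h RPL15A made up 93.9, 87.6 and 88.4% of the pair in ZCZ01, against 98.0, 92.9 and 93.6% in wild type (difference -1.66, -0.88 and -0.95, mean -1.17 ± 0.43), so the groups overlapped through experiment 1 while each experiment moved the same way. At 2 h the difference was -3.12, -0.86 and -1.15 (mean -1.71 ± 1.23), with experiment 1 far below the others. RPL15A itself had 1082, 1234 and 1151 CPM in ZCZ01, against 4481, 1917 and 1775 CPM in wild type at 2 h (log2 fold change -1.10 ± 0.30, edgeR adjusted p = 0.0106), and its wild type value in experiment 1 was more than that of the other experiments by over 2-fold. Without experiment 1 the log2 fold change of RPL15A was -0.59. The A copy held 87.6 to 98.5% of the pair's counts over all libraries.

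**Figure D4:**
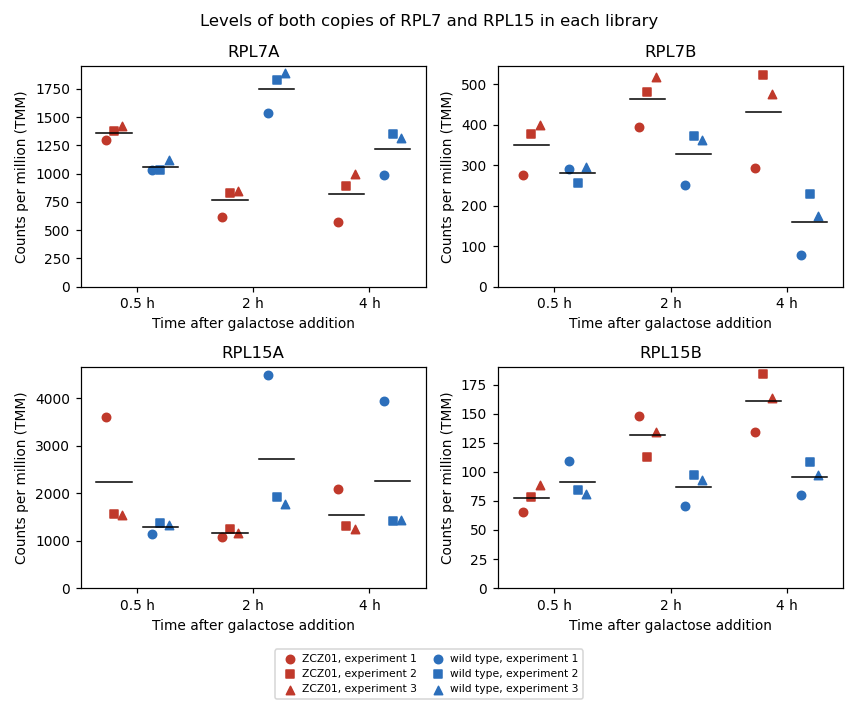
Level of RPL7A, RPL7B, RPL15A and RPL15B (y axes, CPM scaled by TMM, each starting at 0) by time after galactose (x axes), ZCZ01 in red left of wild type in blue, 1 marker shape for each experiment and the mean of 3 libraries as a black line. At 2 and 4 h the ZCZ01 points lie above the wild type points for RPL7B and RPL15B, and at 2 h they lie below them for RPL7A and RPL15A.

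RPL40 moved toward the A copy at 4 h. RPL40A made up 86.1, 87.4 and 87.0% of its pair in ZCZ01, against 77.0, 77.3 and 78.3% in wild type (difference 0.89, 1.03 and 0.89, mean 0.94 ± 0.08), while at 2 h the difference was 0.04, 0.01 and -0.14. RPL37 had a difference of 1.73, 0.64 and 0.59 at 4 h, but at 2 h it was positive in experiment 1 and negative in experiments 2 and 3.

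At 2 h the other pairs with the widest shift were RPL9, RPL31 and RPL22. RPL9 moved toward its B copy, with a difference of -1.38, -0.78 and -0.79 (mean -0.98 ± 0.34). RPL31 moved toward its A copy at 2 h (difference 0.72, 0.97 and 0.92), and at 4 h experiment 1 went the other way (-0.72, 0.71 and 0.80). RPL22A, whose protein also acts on the splicing of the RPL22B transcript, made up 88.4, 87.2 and 89.7% of its pair in ZCZ01, against 92.6, 92.7 and 93.2% in wild type (difference -0.72, -0.89 and -0.66, mean -0.76 ± 0.12). At 4 h RPL22 still leaned toward the B copy, with a difference of -0.63, -0.54 and -0.58 (mean -0.59 ± 0.05).

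**Figure D5:**
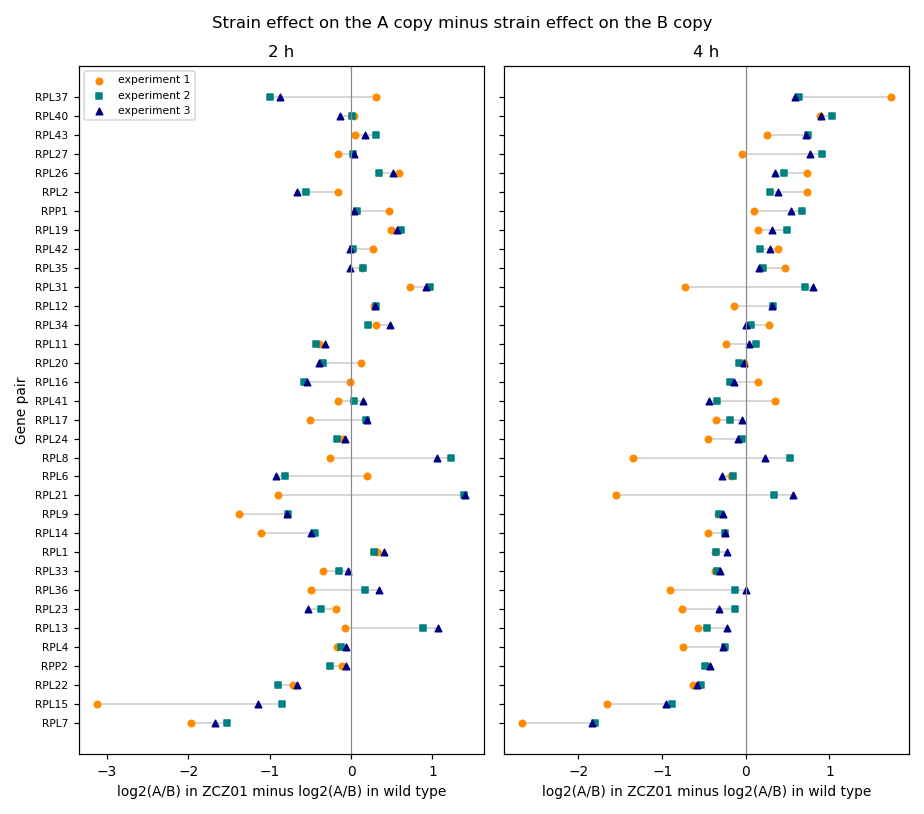
A minus B difference of 34 of the 35 pairs (y axis) at 2 h and 4 h (x axes, log2 ratio of A to B in ZCZ01 minus that in wild type), with 1 marker for each experiment joined by a grey line, ordered by the mean at 4 h. RPL7 and RPL15 sit at the negative end at both times, with means at 4 h of -2.10 and -1.17, and experiment 1 is often apart from experiments 2 and 3.

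The promoters were read for the core of the site that Rap1 binds, written ACCCNNACA and searched on both strands from 400 to 101 bases before the start codon (RefSeq, R64). Of the 81 members, 31 held it (38.3%), against 236 of 6007 protein-coding genes of the nuclear chromosomes (3.93%). Both promoters of the RPL7 pair are shown because its copies moved apart, with the match in capitals: RPL7A (chrVII:366097-366396, minus strand) held 1 and RPL7B (chrXVI:172752-173051, plus strand) held 0. The RPL7B window does hold acccacacg, which departs from the core only at its last base. Binding of Rap1 was not measured, and why the copies moved apart was not tested.
RPL7A: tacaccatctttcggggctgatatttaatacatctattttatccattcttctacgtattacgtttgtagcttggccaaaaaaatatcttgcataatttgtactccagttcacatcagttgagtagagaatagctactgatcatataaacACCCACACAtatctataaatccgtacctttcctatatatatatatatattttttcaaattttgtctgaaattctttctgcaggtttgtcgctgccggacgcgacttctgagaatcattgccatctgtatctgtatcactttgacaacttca
RPL7B: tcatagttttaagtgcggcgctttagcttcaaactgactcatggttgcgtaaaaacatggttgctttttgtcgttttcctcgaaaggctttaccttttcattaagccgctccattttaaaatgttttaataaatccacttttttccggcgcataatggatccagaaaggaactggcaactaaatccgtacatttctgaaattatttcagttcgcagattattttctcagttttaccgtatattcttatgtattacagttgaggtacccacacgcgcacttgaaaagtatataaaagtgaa

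At 2 h, 23 of the 31 members with the match fell and 0 rose, at a median of -0.56, and 32 of the 50 without it fell and 2 rose, at a median of -0.55. At 0.5 h 7 of 31 and 10 of 50 rose, at medians of 0.36 and 0.40. The groups were less alike at 4 h. Of the 31, 2 were then higher and 9 lower, at a median of -0.12. Of the 50, 7 were higher and 4 lower, at a median of -0.03. Over all genes tested, 4.56% were higher at 0.5 h, and 19.1% were higher and 23.2% lower at 2 h. At 4 h 19.9% of them were higher and 21.4% lower. A match is a description of letters in this window, and no difference between these groups was tested.

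Other genes of the pathway are counted beside all genes tested, of which 4.56% were higher and 2.30% lower at 0.5 h, 19.1% higher and 23.2% lower at 2 h, and 19.9% higher and 21.4% lower at 4 h. The lists are short, and nothing particular to them is read from counts near these shares. Of 11 regulators of their transcription, 2 were higher at 0.5 h, and at both 2 and 4 h 4 were higher and 3 lower. The co-activator IFH1 rose at 0.5 h (log2 fold change 0.70 ± 0.14, adjusted p = 0.00938), as did TOD6, a repressor of ribosome biogenesis genes (2.16 ± 0.52, adjusted p = 0.0228). CRF1, a co-repressor of these promoters, rose at 2 h (1.92 ± 0.58) and 4 h (2.59 ± 0.55), with an adjusted p of 0.0163 and 0.00197. RAP1 fell at 4 h (-1.71 ± 0.22, adjusted p = 4.12e-05) and REB1, another general regulatory factor, at 2 h (-1.43 ± 0.33, adjusted p = 0.00335). Of 12 genes of the TORC1 and protein kinase A pathways, 0 were higher and 4 lower at 0.5 h, 4 higher and 3 lower at 2 h, and 1 higher and 3 lower at 4 h (by edgeR at an unadjusted p under 0.05, 0 were higher at 0.5 h). The kinase subunit gene TPK2 fell at 0.5 h (-0.92 ± 0.26), YAK1, a kinase held back by protein kinase A, rose at 2 h (1.58 ± 0.20), as did BCY1, the subunit that restrains protein kinase A (1.21 ± 0.17). At 4 h RAS1 fell (-1.96 ± 0.21) and YAK1 was higher (1.02 ± 0.19).

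Of 5 chaperones that escort particular large subunit proteins to the ribosome, 3 were higher at 0.5 h, 1 lower at 2 h and 2 higher at 4 h. SYO1 (probe YDL063C), which carries RPL5 and RPL11 into the nucleus, was higher at 0.5 h (2.20 ± 0.38, adjusted p = 0.00297), as was RRB1, the chaperone of RPL3 (0.97 ± 0.15). BCP1, the chaperone of RPL23, fell at 2 h (-1.44 ± 0.19, adjusted p = 4.33e-05), and SQT1, that of RPL10, rose at 4 h (0.88 ± 0.18, adjusted p = 0.00183), together with ACL4 (probe YDR161W), that of RPL4 (0.52 ± 0.20). Of 13 assembly factors that resemble a member or hold its place, 7 were higher at 0.5 h, 2 higher and 3 lower at 2 h, and 5 higher and 1 lower at 4 h. MRT4, which holds the place of RPP0, and REI1, which probes the tunnel, rose at 0.5 h (1.21 ± 0.15 and 1.23 ± 0.21), and TIF6, which keeps the subunits apart, fell at 4 h (-1.35 ± 0.36), where JJJ1 rose (0.75 ± 0.19). REI1 and RLP7, a relative of RPL7, fell at 2 h (-0.54 ± 0.19 and -0.56 ± 0.13). Of 6 methyltransferases that modify members, 0 passed at 0.5 h (0 at an unadjusted p under 0.05), 1 was higher at 2 h, and 1 was higher and 1 lower at 4 h. These were RKM2, higher at 2 and 4 h (0.77 ± 0.25 and 1.11 ± 0.26), and RKM1, lower at 4 h (-0.95 ± 0.23).

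Set beside the 81 genes, the 56 small subunit protein genes had 10 higher at 0.5 h, 43 lower and 1 higher at 2 h, and 2 higher and 11 lower at 4 h. Of all genes tested, 4.56% were higher and 2.30% lower at 0.5 h, and 19.1% were higher and 23.2% lower at 2 h. At 4 h 19.9% of all genes were higher and 21.4% lower. Over the 3 times the medians were 0.39, -0.56 and -0.05 for the large subunit, against 0.35, -0.62 and -0.16 for the small subunit. The ratio of large to small subunit counts at 0.5 h was 1.40, 1.47 and 1.47 in ZCZ01 (experiments 1, 2 and 3), against 1.39, 1.38 and 1.40 in wild type. At 2 h it was 1.39, 1.63 and 1.65 in ZCZ01, against 1.40, 1.48 and 1.49 in wild type. At 4 h it was 1.40, 1.64 and 1.64 in ZCZ01, against 1.37, 1.57 and 1.57 in wild type. ZCZ01 was thus above its wild type partner in all 3 experiments at 0.5 and 4 h and in experiments 2 and 3 at 2 h. No test was run on this ratio, since 3 pairs cannot give a two-sided exact p below 0.25. The 42 mitochondrial large subunit protein genes had none passing at 0.5 h (2 lower at an unadjusted p under 0.05), 34 lower at 2 h and 35 lower at 4 h, at medians of -0.17, -0.95 and -1.01.

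Of the 81 probes, 20 overlap a probe on the opposite strand and 1, RPL21A, overlaps others on its own strand. The sources used here do not say whether counting used strand. Among the named members with such a neighbour, the opposite probe had at most 7 counts in any library, except DUS4 beside RPL31B (20 to 92), LCD1 beside RPL37B (22 to 70) and NKP1 beside RPP2B (23 to 71), where the members had at least 599, 444 and 2471.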

How the data were processed

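The deposited values are uncorrected counts per gene probe, which the authors made from QuantSeq reads with Bowtie2 (version not given in the sources used here). Of each table every column was used. Genes were filtered by filterByExpr in edgeR 4.0.16, which left 5658, scaled by TMM, and tested by its quasi-likelihood test with Benjamini-Hochberg adjustment over all of them. The fit for strains held 9 blocks, 1 for each pair of libraries of an experiment and time in the library names, and 1 strain effect per time. Differences between times are contrasts of that fit, and time courses come from a fit of the 6 groups with experiment as a block. The deviations of paired libraries from their group means correlated at 0.536 to 0.816. Levels are counts scaled by TMM to a common library size (CPM). The standard error of a log2 fold change is its absolute value divided by the square root of the test's F statistic. The analysis was tested on simulated data. Members were named by role, level, paralog difference and the 5 largest called changes of 1 sign in all 3 experiments, and from other lists the 2 largest called changes. Alternatives were other blocks, DESeq2 1.42.0, other scalings and filters, each experiment left out, experiments 2 and 3 summed, and the times of the titles. The members and lists were chosen with earlier results of these data known. Some members and other genes that the naming rule selects are not reported here.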

Additional observations from a re-analysis of the deposited data

Results flagged for a closer look

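The effect of the strain on the 81 genes was not the same at all times, by a test of the difference itself within the fit of all libraries. From 0.5 to 2 h the log2 ratio of ZCZ01 to wild type went down in 67 members and up in 1. Of all genes tested, 18.2% went down and 12.5% up. The widest drops among the members were in RPL18B (-1.83), RPL15A (-1.78), RPL31B (-1.66) and RPL9A (-1.64). RPL15A rested more than the others on experiment 1, in which ZCZ01 was far above wild type at 0.5 h and far below it at 2 h. From 2 to 4 h the ratio went up in 30 members and down in 0, with gains among the widest in RPL2A (1.41), RPL1B (1.28), RPL30 (1.20) and RPL31B (1.10). Of all genes tested, 6.86% went up and 6.88% down. With experiments 2 and 3 summed the drop held in 35 members, while none of the gains passed (25 at an unadjusted p under 0.05). Of all genes in that fit, 472 dropped and 376 gained from 0.5 to 2 h, and 10 gained and 43 dropped from 2 to 4 h. Both differences use the same 2 h libraries with opposite sign, so the drops and the gains are not independent. No cause of these differences was tested.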

How the results depend on the processing

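All counts in this paragraph are of members at an adjusted p under 0.05. Where experiments 2 and 3 were summed, 0 were higher at 0.5 h, 0 higher and 32 lower at 2 h, and 1 higher and 3 lower at 4 h. The strain effect then differed downward in 35 and upward in 0 between 0.5 and 2 h, and upward in 0 between 2 and 4 h. Over time 4 fell in ZCZ01 and 5 rose in wild type from 0.5 to 2 h, and 0 rose in ZCZ01 and 0 fell in wild type from 2 to 4 h. The 3 libraries of a group then count as 2, so fewer samples enter that fit. Its counts over all genes are given with the results above. Without the replicate block (no use of the pairing), 0 were higher at 0.5 h, 1 higher and 31 lower at 2 h, and 4 higher and 3 lower at 4 h. The differences of the effect were then 31 downward and 6 upward, and over time 14 fell in ZCZ01 and 22 rose in wild type to 2 h, and 0 rose in ZCZ01 and 14 fell in wild type to 4 h. With 1 block for each experiment, 6 were higher at 0.5 h, 1 higher at 2 h, and 5 higher and 7 lower at 4 h. With only the groups compared in the fit, 4 were higher at 0.5 h, 0 had a difference upward between 0.5 and 2 h, and from 2 to 4 h 3 rose and 6 fell in ZCZ01. With scaling by total counts only, 7 were higher at 0.5 h, 2 rose in ZCZ01 to 2 h and 26 fell in wild type to 4 h, and 8 were lower at 4 h once genes needed 50 counts on average.

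With the times of the sample titles, 0 members passed at 0.5, 2 or 4 h or in a difference upward or downward between times, 3 fell and 0 rose in wild type to 2 h, 3 fell in ZCZ01 to 2 h, and 0 fell in wild type and 0 rose in ZCZ01 to 4 h. The cause was not tested. The named log2 fold changes that then turned round, none of them called, were 0.0837 for RPL19A, 0.00150 for RPL37A, 0.0275 for RPL41B, 0.15 for RPL43A and 0.0322 for RPP2B at 2 h, -0.28 for RPL25, -0.28 for RPL27A, -0.0129 for RPL41B, -0.14 for RPL43A, -0.0135 for RPL8B and -0.53 for RPL9A at 0.5 h, and 0.28 for RPL37B and -0.0694 for RPP1A at 4 h.

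Leaving out each experiment in turn gave 0 to 74 members higher and 0 to 2 lower at 0.5 h, 0 to 11 higher and 31 to 62 lower at 2 h, and 1 to 29 higher and 2 to 33 lower at 4 h. The highest count came without experiment 1 in each case, where only the closely alike experiments 2 and 3 remained. Shares over all genes are not given for the fits of this paragraph. The differences of the effect gave 0 upward and 35 to 74 downward between 0.5 and 2 h, and 0 to 58 upward and 0 to 9 downward between 2 and 4 h. In ZCZ01, 0 to 15 rose and 4 to 51 fell to 2 h, and 0 to 36 rose and 0 to 15 fell to 4 h. In wild type, 4 to 74 rose and 0 to 2 fell to 2 h, and 0 to 7 rose and 0 to 62 fell to 4 h. The mean A minus B difference kept its sign for RPL7, RPL9, RPL15, RPL22 and RPL37 at 2 and 4 h, and turned round for RPL31 at 4 h (-0.00748 to 0.76) and RPL40 at 2 h (-0.0626 to 0.0242). Of 47 called values of named members, 47 passed again under RLE scaling, with no filter and without experiment 1, 45 by DESeq2, 21 without experiment 2, 18 without experiment 3, 21 with experiments 2 and 3 summed and 23 without the block.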
